A study of Mus musculus with 26 samples.

Results

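Neurofilaments and peripherin are the intermediate filaments that fill the axons of peripheral neurons. The 5 genes described here are Nefl, Nefm and Nefh, which encode the light, medium and heavy neurofilament subunits, Ina, which encodes alpha-internexin, and Prph, which encodes peripherin. They were taken by symbol from the authors' table of gene levels, and all 5 of 5 were found among 39017 genes in the count table. All 5 also passed the filter on low counts that left 17411 genes for testing.

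The levels come from bulk RNA sequencing of neurons sorted by fluorescence from dorsal root ganglia (DRG) of mice, in 26 libraries of 8 subtypes. Low-threshold mechanoreceptors (LTMRs) respond to light touch, nociceptors to noxious stimuli, and proprioceptors to muscle length and force. Nonpeptidergic nociceptors (3 libraries) carried MrgD-EGFP and peptidergic nociceptors (3) CGRP-GFP. C-LTMRs (3) carried ThCreER with the tdTomato reporter Ai14 and had tamoxifen at 2 mg per day on postnatal days 13 and 14 or 14 and 15. Aδ-LTMRs (3) carried TrkBCreER with Ai14 and had 2 mg per day on embryonic days 12 and 13. Aβ RA-LTMRs, the rapidly adapting class (5), carried Npy2r-GFP, and proprioceptors (3) carried PVIRESCre with Ai14. Aβ SA1-LTMRs, the slowly adapting class, and Aβ Field-LTMRs (3 each) had the genotype TrkCCreER;Retf(GFP). The SA1 animals had tamoxifen at 3 mg per day on embryonic day E12.5, and the Field animals 2 mg per day on postnatal days 13 and 14 or 14 and 15. The other groups had none, so tamoxifen and subtype cannot be told apart. All animals were adults of postnatal day 23 or older. Each library pooled neurons from several mice and rounds of sorting. Proprioceptors came from thoracic ganglia alone and the other subtypes from all axial levels, so level and subtype cannot be told apart there.

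Neurofilaments are polymers in which Nefl forms the core with Nefm and Nefh, whose long tails project from the filament and are heavily phosphorylated. Neurofilament content is known to go with axon calibre, and antibodies to the heavy subunit have long been used to pick out the large, myelinated neurons of the DRG. Peripherin co-assembles with the neurofilament subunits and is a common marker of small, unmyelinated DRG neurons, while alpha-internexin is best known from central and developing neurons.

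The members differ in their tails, and the heavy subunit's is built from repeats of lysine, serine and proline whose serine is the main site of phosphorylation. Runs of 3 codons that read Lys-Ser-Pro were counted in frame in the coding sequences of the mouse annotation (GENCODE, build GRCm38, the same build as mm10). Nefh held 51 such runs in 1090 codons and Nefm 4 in 848, and the coding sequences of Nefl (543 codons), Prph (507) and Ina (501) held none. A stretch of 150 coding bases of Nefh with 8 of the runs is printed to show the repeat. It lies in exon 4, on the minus strand of chr11:4940920-4941069 (GRCm38), and the capitals mark the Lys-Ser-Pro codons.
Nefh: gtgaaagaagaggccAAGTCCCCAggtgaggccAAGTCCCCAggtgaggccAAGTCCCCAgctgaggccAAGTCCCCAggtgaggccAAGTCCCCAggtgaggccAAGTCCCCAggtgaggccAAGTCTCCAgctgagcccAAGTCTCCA

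Nefl (chr14:68083863-68089095, plus strand) and Nefm (chr14:68082590-68124846, minus strand) are neighbours on chromosome 14. Exon 4 of a Nefm transcript overlaps exon 1 of Nefl over 1108 bases on the opposite strand. Nefh lies on the minus strand of chromosome 11 (4938754 to 4948064), Prph on the plus strand of chromosome 15 (99055174 to 99058978) and Ina on the plus strand of chromosome 19 (47014698 to 47025327). Exon 1 of Ina overlaps exon 1 of an Nt5c2 transcript over 456 bases on the opposite strand. Whether the counting used strand is not given in the sources used here, so reads from the overlapped stretches of Nefl, Nefm and Ina cannot be assigned with certainty.

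The libraries held 10706522 to 66309214 counts. CPM, library counts scaled for depth and composition (TMM), compares 1 gene between libraries. The authors' RPKM, which is per length, compares genes with each other. P-values measure the spread between libraries, each a pool of mice. Libraries of 1 subtype correlated at 0.933 to 0.991 over genes. Aδ libraries 1 and 2 stood apart with mapping rates of 61.4% and 74.5%, against 86.1% to 97.7% in the others. They alone had reads of 15 to 51 bases. The reads were 25 to 50 bases in all Aβ SA1 libraries and Aβ RA libraries 1 to 3, and 15 to 50 in the rest. This read-length class goes in part with subtype, so the 2 cannot be fully told apart. Each subtype's labelling gene was detected in all of its libraries, and each was highest in its own subtype except 2. Npy2r averaged 20.4 CPM in Aβ RA-LTMRs and 52.9 CPM in peptidergic nociceptors, and Ret, one of the 2 genes that mark the SA1 and Field animals, was highest in C-LTMRs at 1356 CPM. All 12 satellite glia markers were detected in every subtype, and their summed level ran from 848 to 1618 CPM in C-fibre libraries and from 866 to 4402 CPM in A-fibre libraries. C-fibre subtypes here are both nociceptor groups and C-LTMRs (9 libraries), and A-fibre subtypes are Aδ, Aβ RA, Aβ SA1 and Aβ Field LTMRs and proprioceptors (17 libraries). The peptidergic group is counted with the C-fibre subtypes although the CGRP-GFP label does not separate fibre classes.

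The 5 genes fell into 3 patterns. Nefl, Nefm and Nefh were higher in every A-fibre library than in every C-fibre library, and the difference was smallest for the light and largest for the heavy subunit. Ina averaged 5.28 to 14.5 CPM in the 4 A-fibre LTMR classes, 67.7 to 129 CPM in C-fibre subtypes and 268 CPM in proprioceptors. Prph averaged 1337 CPM in nonpeptidergic nociceptors and 348 to 764 CPM in the others.

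**Figure D1:**
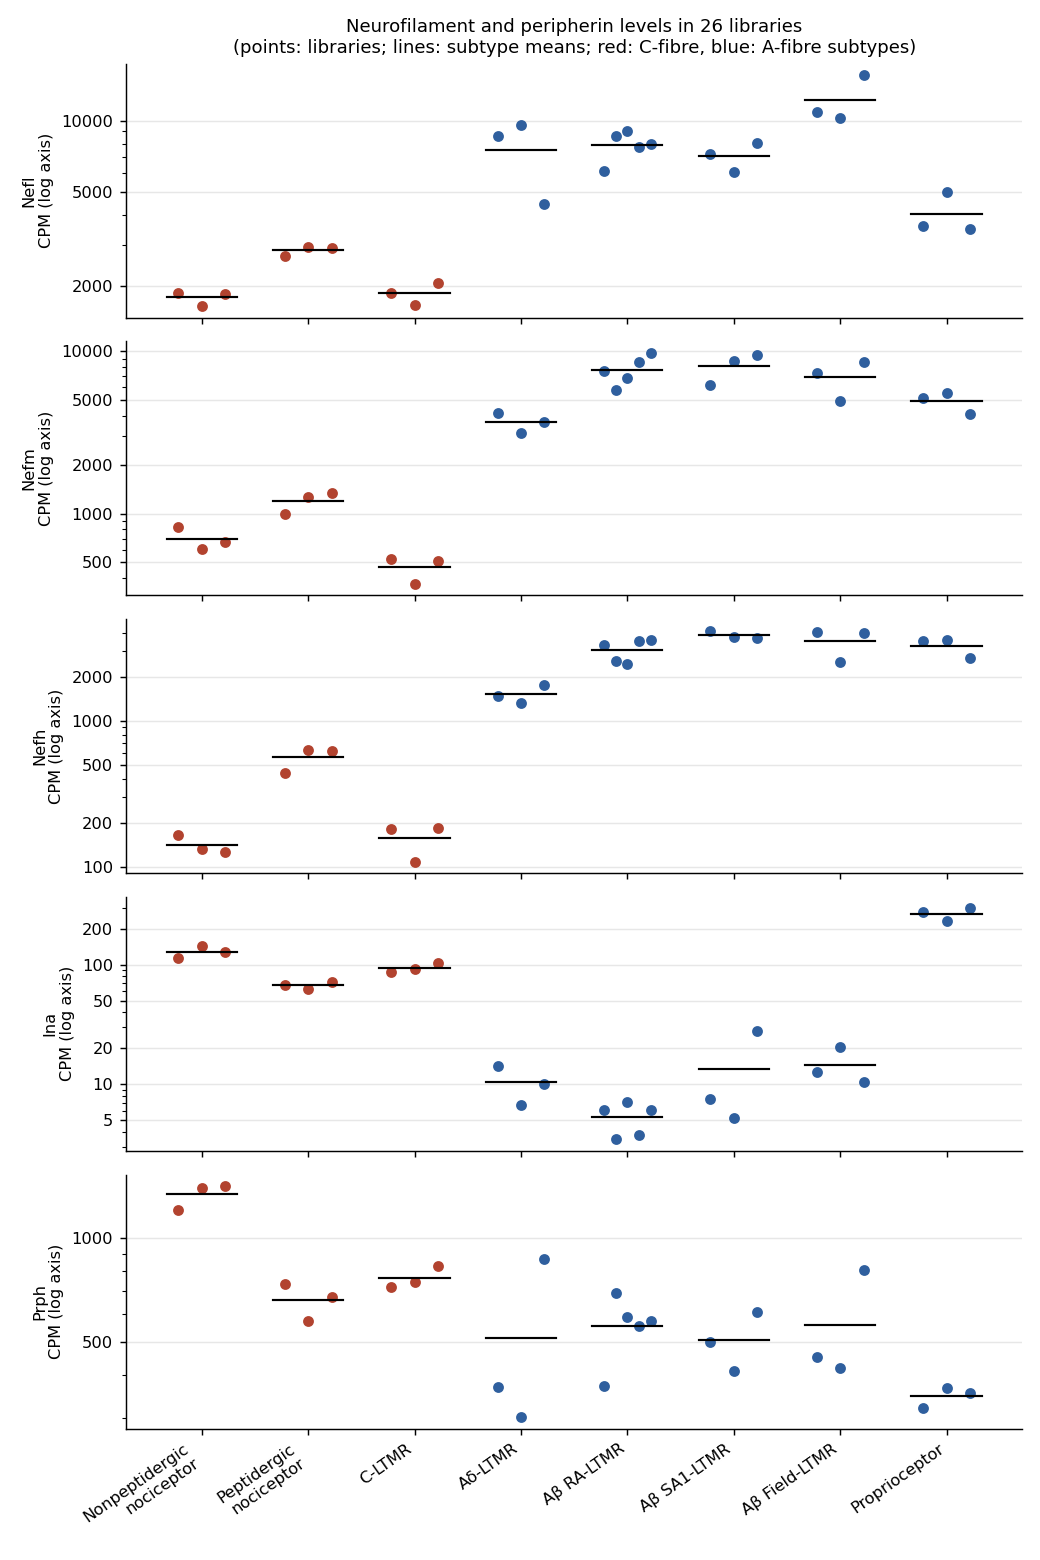
Level of each of the 5 genes in CPM (log axis) in the 26 libraries, by subtype, with points for libraries and lines for subtype means. The 17 A-fibre libraries (blue) lie above the 9 C-fibre libraries (red) for Nefl, Nefm and Nefh, and Ina separates proprioceptors from the 4 A-fibre LTMR classes.

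Nefl encodes the light subunit, which Nefm and Nefh need to form a filament. Nonpeptidergic nociceptors held 1878, 1651 and 1856 CPM, and C-LTMRs 1874, 1673 and 2067 CPM. Peptidergic nociceptors were somewhat above both, at 2672, 2939 and 2895 CPM. Nefl was higher in the A-fibre LTMRs. Aδ-LTMRs held 8569, 9621 and 4429 CPM, Aβ RA-LTMRs 8992, 7719, 7966.5, 6135 and 8646 CPM, and Aβ SA1-LTMRs 7227, 6077 and 8017 CPM. Aβ Field-LTMRs stood highest, at 10895, 10208 and 15518 CPM. Proprioceptors held 3586, 4984 and 3483 CPM, the lowest of the A-fibre subtypes, yet no proprioceptor library fell to the 2939 CPM of the highest C-fibre library. The mean over A-fibre subtypes exceeded that over C-fibre subtypes by 1.78 on the log2 scale (SE 0.12, edgeR's quasi-likelihood test, adjusted p = 1.8e-12).

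Nefm, the medium subunit, separated the fibre classes more widely. C-LTMRs were lowest, at 524, 369 and 508.5 CPM, nonpeptidergic nociceptors held 825, 604 and 668.5 CPM, and peptidergic nociceptors 997, 1260.3 and 1347 CPM. Aδ-LTMRs held 4138, 3149.9 and 3656 CPM and proprioceptors 5128, 5522.5 and 4096 CPM. The 3 Aβ classes lay above most of these, with 6862, 8540.5, 9756, 7566 and 5766 CPM for Aβ RA, 6159, 8677.5 and 9419 CPM for Aβ SA1 and 7307, 4925.5 and 8616 CPM for Aβ Field. The lowest A-fibre library, at 3149.9 CPM, stood above the highest C-fibre library, at 1347 CPM. The A-fibre minus C-fibre difference was 3.03 on the log2 scale (SE 0.13, adjusted p = 3.3e-16).

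Nefh, the heavy subunit with the repeat tail printed above, showed the widest range. Nonpeptidergic nociceptors held 165, 131.5 and 126 CPM and C-LTMRs 182, 109 and 184 CPM. Peptidergic nociceptors held 435, 633 and 616 CPM, so they lay apart from the other C-fibre subtypes without overlap. Aδ-LTMRs followed at 1466, 1327 and 1760.5 CPM. The remaining A-fibre libraries lay between 2425 and 4122 CPM. Aβ RA-LTMRs held 2425, 3519, 3535, 3297 and 2542 CPM and Aβ SA1-LTMRs 4122, 3745 and 3673 CPM. Aβ Field-LTMRs held 4048, 2503 and 4003 CPM and proprioceptors 3501, 3551 and 2685 CPM, so these 4 subtypes overlapped. The A-fibre minus C-fibre difference was 3.64 on the log2 scale (SE 0.13, adjusted p = 3.0e-17).

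Across all genes tested, 28.5% passed in the A-fibre against C-fibre contrast, at an adjusted p under 0.05 and a log2 difference of at least 1. Higher in A-fibre subtypes were 15.6% of genes (2723) and higher in C-fibre subtypes 12.9% (2246). On the authors' RPKM with limma the split ran the other way, with 1639 higher and 2296 lower at a pseudocount of 0.1 and 785 and 1172 at a pseudocount of 1. Of the 5 members, 3 passed as higher in A-fibre subtypes (Nefl, Nefm, Nefh) and 1 as higher in C-fibre subtypes (Ina). For Nefl, Nefm and Nefh the 17 A-fibre libraries did not overlap the 9 C-fibre libraries in CPM or RPKM, as held in CPM for 2.85% of tested genes in that direction and 2.96% in the other. In bulk libraries of sorted neurons, fewer cells that use a gene and less RNA per cell cannot be told apart. With the satellite glia score (mean log2 CPM of the 12 markers) as a covariate the 3 differences were 1.80, 3.19 and 3.93.

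Ina, the subunit of central and developing axons, had a different order. Proprioceptors held 275.5, 233 and 296 CPM. Nonpeptidergic nociceptors held 115, 142 and 129 CPM, C-LTMRs 87.8, 91.7 and 103 CPM, and peptidergic nociceptors 67.8, 63.05 and 72.2 CPM. The libraries of these 4 subtypes did not overlap one another, and the share of all genes for which this holds was not computed. Of the 3 pairs within the C-fibre subtypes, 0 passed for Ina. Nonpeptidergic nociceptors differed from C-LTMRs by 0.45 (SE 0.39, adjusted p = 0.388) and from peptidergic nociceptors by 0.93 (SE 0.39, adjusted p = 0.0615). Peptidergic nociceptors differed from C-LTMRs by -0.48 (SE 0.39, adjusted p = 0.519). The 4 A-fibre LTMR classes were far lower: Aδ-LTMRs held 14.2, 6.76 and 10.1 CPM, Aβ RA-LTMRs 7.04, 3.79, 6.06, 6.04 and 3.47 CPM, and Aβ Field-LTMRs 12.6, 20.4 and 10.4 CPM. Aβ SA1-LTMRs held 7.49 and 5.23 CPM in libraries 1 and 2 and 27.7 CPM in library 3. No A-fibre LTMR library reached the 63.05 CPM of the lowest C-fibre library. Ina was lower in A-fibre than in C-fibre subtypes by a log2 difference of -2.26 (SE 0.19, adjusted p = 1.9e-10), a mean that joins the low LTMRs with the high proprioceptors.

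Proprioceptors passed above each of the 7 other subtypes for Ina. The differences ran from 4.24 (SE 0.44, adjusted p = 7.4e-08, Aβ Field-LTMRs) to 5.67 (SE 0.38, adjusted p = 1.8e-10, Aβ RA-LTMRs) against the A-fibre LTMRs. They were smaller against peptidergic nociceptors at 1.99 (SE 0.40, adjusted p = 0.000256) and C-LTMRs at 1.51 (SE 0.39, adjusted p = 0.00287), the latter call being lost with the glia score as covariate (0.96, adjusted p = 0.279). Against nonpeptidergic nociceptors the difference was 1.06 (SE 0.39, adjusted p = 0.0283). That last call was lost on leaving out nonpeptidergic library 1, 2 or 3 or proprioceptor library 1 or 3, one at a time (adjusted p 0.0510 to 0.0910). With the glia score as covariate the difference was 0.04 (adjusted p = 0.989). The summed glia markers held 2147 to 4402 CPM in proprioceptors and 992 to 1070 CPM in nonpeptidergic nociceptors, where Cd9 alone averaged 636 CPM against 55.9 CPM in proprioceptors. The other 11 markers summed to 2115 to 4335 CPM in proprioceptors, the highest of the subtypes by mean, and 346 to 458 CPM in nonpeptidergic nociceptors, the lowest; their part in the result was not tested. Apoe, the glial marker with the highest mean in proprioceptors, averaged 1647 CPM there and 147 CPM in nonpeptidergic nociceptors. Against the A-fibre LTMRs the Ina difference in proprioceptors passed in all 36 alternatives tried.

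Prph, peripherin, was highest in nonpeptidergic nociceptors, at 1207.5, 1391 and 1412 CPM. C-LTMRs held 718, 745 and 830.5 CPM and peptidergic nociceptors 737, 574 and 674 CPM. Each A-fibre LTMR class overlapped the range of peptidergic nociceptors. The range of C-LTMRs was overlapped by Aδ-LTMRs through library 3 (866 CPM) and by Aβ Field-LTMRs through library 3 (806 CPM). All Aβ RA and Aβ SA1 libraries lay below the 718 CPM of the lowest C-LTMR library. No library of another subtype reached the nonpeptidergic range. Aδ-LTMRs held 369, 302 and 866 CPM, Aβ RA-LTMRs 589, 557, 574, 372 and 691 CPM, Aβ SA1-LTMRs 499.5, 411 and 608 CPM, and Aβ Field-LTMRs 451, 419 and 806 CPM. Proprioceptors held 321, 368 and 354 CPM. The A-fibre minus C-fibre difference of -0.84 (SE 0.14, adjusted p = 1.5e-05) did not reach the 2-fold threshold on counts, and it was -1.06 with limma on RPKM, which does reach it.

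For Prph, 7 of 28 pairs of subtypes passed, against 8.87% to 35.5% of all genes in a pair (median 19.6%). Nonpeptidergic nociceptors were above 6 subtypes, from 1.01 (SE 0.29, adjusted p = 0.00685) over peptidergic nociceptors to 1.94 (SE 0.29, adjusted p = 4.9e-06) over proprioceptors. The difference over C-LTMRs was 0.81 (SE 0.29, adjusted p = 0.0298), below the fold threshold. C-LTMRs passed above proprioceptors by 1.14 (SE 0.29, adjusted p = 0.00233). The glia score was lowest in nonpeptidergic nociceptors (3.98 ± 0.22, SD, n = 3) and highest in proprioceptors (6.401 ± 0.35, SD, n = 3), the reverse of Prph at both ends. In between it was 5.07 ± 0.15 in C-LTMRs and 5.02 ± 0.39 in Aβ SA1-LTMRs (SD, n = 3). Prph averaged 764 CPM in C-LTMRs and 506 CPM in Aβ SA1-LTMRs, and this pair did not pass (0.595, SE 0.29, adjusted p = 0.0985). With the glia score as covariate 1 pair passed and the test over all 8 subtypes gave an adjusted p of 0.126, against 6.0e-05 without it; the glia's part in the pattern was not tested. The pair with peptidergic nociceptors was at the fold threshold and lost its call in 12 of 36 alternatives.

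**Figure D2:**
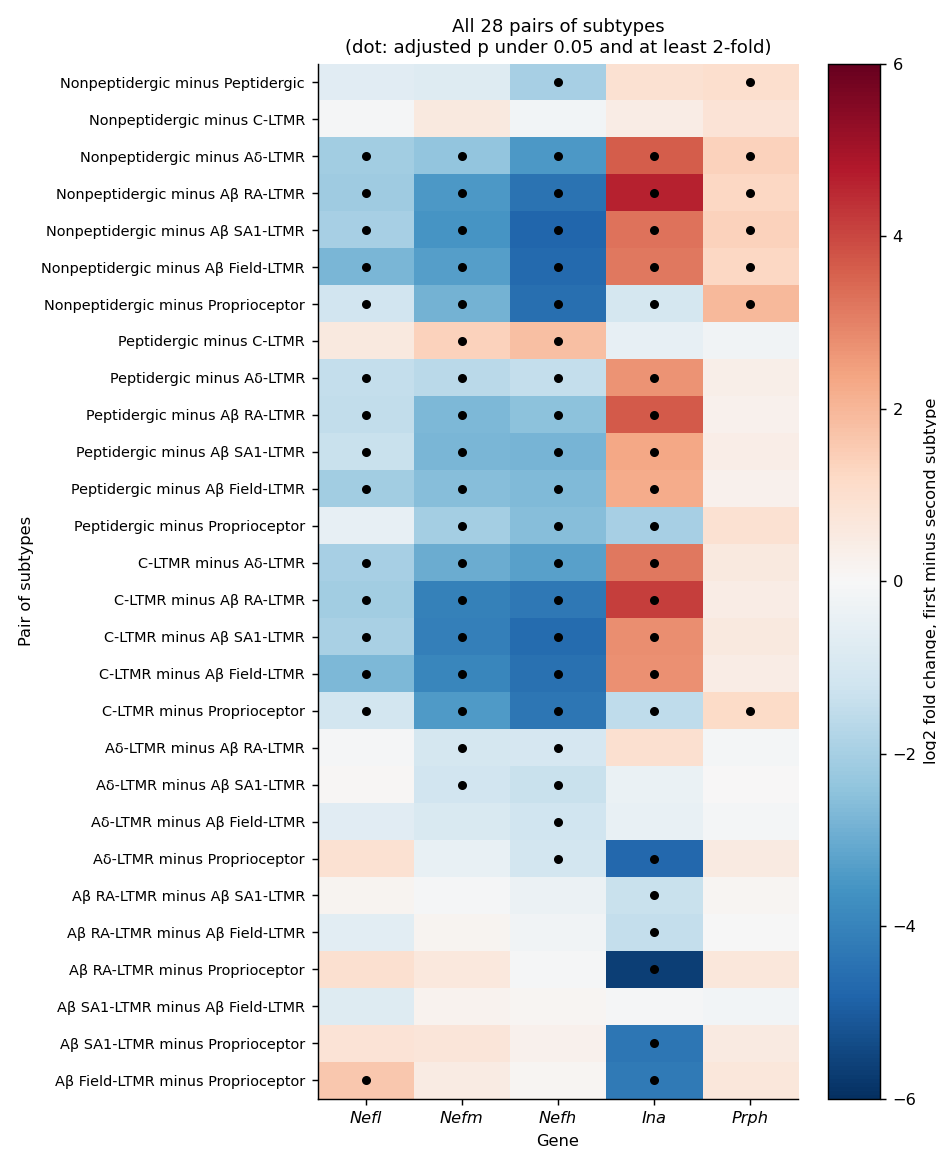
Log2 fold change of each of the 5 genes (columns) in each of the 28 pairs of subtypes (rows), first minus second subtype, with a dot where the pair passed. Nefh and Ina passed in 21 pairs each, Nefm in 18, Nefl in 15 and Prph in 7.

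The test over all 8 subtypes passed for all 5 genes, as it did for 78.3% of genes, with adjusted p of 4.2e-11 for Nefl, 3.8e-14 for Nefm, 3.8e-15 for Nefh, 2.8e-12 for Ina and 6.0e-05 for Prph. Of the 15 pairs that set an A-fibre against a C-fibre subtype, Nefm, Nefh and Ina passed in 15 each and Nefl in 14. The exception for Nefl was proprioceptors against peptidergic nociceptors (0.50, SE 0.22, adjusted p = 0.0647). Counted by pair, all 5 members passed between nonpeptidergic nociceptors and each A-fibre subtype. Of these calls, Nefl against proprioceptors was lost without proprioceptor library 2 (a difference of 0.97, under the fold threshold) and with the glia score as covariate (adjusted p = 0.155). Prph against Aδ-LTMRs was lost with read-length class as covariate (0.63, adjusted p = 0.142) and without Aδ libraries 1 and 2 (0.58, adjusted p = 0.181). With the glia score as covariate Prph passed against Aβ SA1-LTMRs alone of the 5. The share of all genes that passed there was 31.9% against Aδ-LTMRs, 35.5% against Aβ RA-, 34.3% against Aβ SA1- and 30.1% against Aβ Field-LTMRs, and 34.4% against proprioceptors. All 5 also passed between C-LTMRs and proprioceptors, where 32.4% of genes did. Nefl lost that call without proprioceptor library 2 (0.91) and on RPKM with limma (0.93 at both pseudocounts), and Ina and Prph lost it with the glia score as covariate. Between C-LTMRs and the A-fibre LTMRs the 4 members other than Prph passed, beside 18.7% of genes against Aδ-, 28.9% against Aβ RA-, 28.7% against Aβ SA1- and 19.7% against Aβ Field-LTMRs. The same 4 passed between peptidergic nociceptors and these classes, beside 17.9%, 27.1%, 28.2% and 16.3% of genes in the same order. Nefl against Aδ-LTMRs lost its call there in 4 of 36 alternatives, at 0.64 with read-length class, 0.60 without Aδ libraries 1 and 2, and 0.81 on RPKM at both pseudocounts. Between peptidergic nociceptors and proprioceptors 3 members passed (Nefm, Nefh and Ina, 30.8% of genes). Within the A-fibre subtypes, 2 members passed between Aδ- and Aβ RA-LTMRs (11% of genes), Aδ- and Aβ SA1-LTMRs (18.7%), Aδ-LTMRs and proprioceptors (15.3%) and Aβ Field-LTMRs and proprioceptors (19.5%). A single member passed between Aδ- and Aβ Field-LTMRs (9.58%), Aβ RA- and Aβ SA1-LTMRs (10.3%), Aβ RA- and Aβ Field-LTMRs (10.3%), Aβ RA-LTMRs and proprioceptors (11%) and Aβ SA1-LTMRs and proprioceptors (18.1%). The members differed by -0.17 (Nefh) to 0.81 (Prph) between nonpeptidergic nociceptors and C-LTMRs (24.8% of genes) and by -0.78 (Nefl) to 0.22 (Nefm) between Aβ SA1- and Aβ Field-LTMRs (8.87%), all short of the thresholds. Ina was lower in the A-fibre subtype in 12 of the 15 pairs across fibre classes and higher in 3, all 3 with proprioceptors.

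Within the C-fibre subtypes, the heavy subunit set peptidergic nociceptors apart. Nefh was 1.99 higher on the log2 scale than in nonpeptidergic nociceptors (SE 0.23, adjusted p = 1.2e-07) and 1.83 higher than in C-LTMRs (SE 0.22, adjusted p = 1.3e-06). Nefm was 1.36 higher than in C-LTMRs (SE 0.22, adjusted p = 6.5e-05) and 0.78 higher than in nonpeptidergic nociceptors (SE 0.22, adjusted p = 0.00646), the latter below the fold threshold. For Nefl the differences were 0.66 (adjusted p = 0.0193) and 0.60 (adjusted p = 0.0667), and neither passed. So 2 of 5 members passed between the nociceptor groups (Nefh and Prph, where 26.3% of genes did) and 2 of 5 between peptidergic nociceptors and C-LTMRs (Nefm and Nefh, where 11% did). Nonpeptidergic nociceptors and C-LTMRs had close Nefh levels, with a difference of 0.17 (SE 0.22, adjusted p = 0.587).

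Within the A-fibre subtypes, Aδ-LTMRs had the lowest levels of the 2 tailed subunits. For Nefh they were lower by 1.01 than Aβ RA-LTMRs (SE 0.20, adjusted p = 0.000840), by 1.34 than Aβ SA1-LTMRs, by 1.21 than Aβ Field-LTMRs and by 1.10 than proprioceptors, and all 4 pairs passed on the counts. For Nefm they passed as lower than Aβ RA-LTMRs (1.08, SE 0.20, adjusted p = 0.000500) and Aβ SA1-LTMRs (1.15, SE 0.22, adjusted p = 0.000458). On the counts Nefl differed from that in Aβ RA-LTMRs by 0.07 (SE 0.20, adjusted p = 0.853) and did not pass. That value rests on libraries 1 and 2, with 8569 and 9621 CPM of Nefl. Aδ library 3, at 4429 CPM, lay below every Aβ RA library. Apart from leaving out single libraries, the alternatives put Nefl higher in Aβ RA-LTMRs by 0.05 to 0.86. The RPKM means of Nefl were 1333 ± 306 (SD, n = 3) in Aδ- and 2069 ± 446 (SD, n = 5) in Aβ RA-LTMRs. The Aδ comparisons rest on a group in which libraries 1 and 2 had low mapping rates. Without both, the Nefh difference from Aβ RA-LTMRs was 0.83 (adjusted p = 0.174) and that of Nefm 1.10 (adjusted p = 0.0538), and on the authors' RPKM they were 0.49 (adjusted p = 0.194) and 0.78 (adjusted p = 0.0321). The Nefh calls against Aβ Field-LTMRs and proprioceptors were lost in 4 of 36 alternatives each, namely with read-length class, without Aδ libraries 1 and 2 (adjusted p = 0.0580 and 0.0999) and on RPKM at both pseudocounts (0.85 and 0.84). That against Aβ SA1-LTMRs was lost in 5, with read-length class, glia score or 5' to 3' bias as covariate and on RPKM (0.98). The Nefm call against Aβ SA1-LTMRs was lost with each of those 3 covariates (0.81, 0.97 and 0.72). In Aδ library 3 the counts gave 1760.5 CPM of Nefh, still below the lowest library of the other A-fibre subtypes.

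Among Aβ classes and proprioceptors, Nefh differed over 6 pairs by 0.08 to 0.33 on the log2 scale, with SE of 0.19 to 0.22 and the lowest adjusted p at 0.279. Nefl differed more, since Field-LTMRs exceeded proprioceptors by 1.60 (SE 0.22, adjusted p = 5.2e-06), the only pair within the A-fibre subtypes that passed for it. Proprioceptors were lower in Nefl than Aβ RA-LTMRs by a log2 difference of -0.97 (SE 0.20, adjusted p = 0.00101), which lies just under the fold threshold and passed in 10 of 36 alternatives. Among the LTMRs, Ina passed as lower in Aβ RA-LTMRs than in Aβ Field-LTMRs (1.43, SE 0.35, adjusted p = 0.00578) and in Aβ SA1-LTMRs (1.35, SE 0.35, adjusted p = 0.00963). The latter call was lost in 5 of 36 alternatives: without SA1 library 3 (0.27, adjusted p = 0.550), with the replicate number as a block (adjusted p = 0.0644), with read-length class (adjusted p = 0.0516) and on RPKM at both pseudocounts (adjusted p = 0.0926 and 0.109). The call against Field-LTMRs was lost without Field library 2 (1.12, adjusted p = 0.0558) and on RPKM at a pseudocount of 1 (0.92, adjusted p = 0.0562).

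In the authors' RPKM, the make-up of the filament transcripts differed between subtypes. In nonpeptidergic nociceptors Prph made up 62.4% ± 4.2 (SD, n = 3) of the summed RPKM of the 5 genes, and in C-LTMRs 47.6% ± 3.2 (SD, n = 3). In peptidergic nociceptors its share was 29.3% ± 4.2 (SD, n = 3) and Nefl took 40.6% ± 1.0 (SD, n = 3). Peripherin thus had the highest RPKM of the 5 genes in the first pair of subtypes. The counts gave this order in nonpeptidergic nociceptors only: per kb of annotated exon, Prph stood at 669 ± 56 CPM and Nefl at 531 ± 37 there, but at 382 ± 29 and 554 ± 58 in C-LTMRs (SD, n = 3). In A-fibre subtypes the Prph share was between 5.90% ± 1.1 (SD, n = 3, Aβ SA1-LTMRs) and 15.1% ± 4.9 (SD, n = 3, Aδ-LTMRs). Nefl and Nefm together then made up most of the total, with 40.9% ± 3.8 and 37.9% ± 3.8 (SD, n = 5) in Aβ RA-LTMRs. Proprioceptors had the largest share of Nefh, 25.6% ± 2.0 (SD, n = 3), against 2.41% ± 0.43 in nonpeptidergic nociceptors and 17.8% ± 3.2 in Aβ SA1-LTMRs (SD, n = 3). Ina was a minor transcript throughout, with 2.37% ± 0.13 (SD, n = 3) at most, in C-LTMRs, and 0.0293% ± 0.0092 (SD, n = 5) at least, in Aβ RA-LTMRs.

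**Figure D3:**
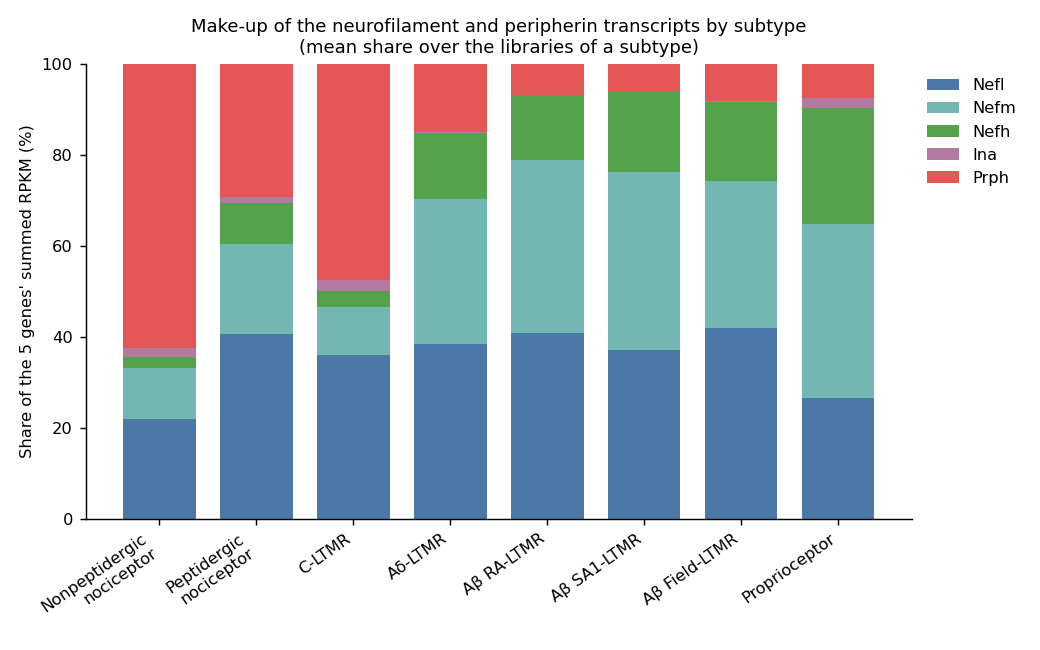
Share of each gene in the summed RPKM of the 5 genes (percent, mean over the libraries of a subtype). Prph takes 62.4% in nonpeptidergic nociceptors and 5.90% in Aβ SA1-LTMRs, and Nefh takes 25.6% in proprioceptors.

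The 5 genes took a larger part of all counts in A-fibre subtypes. It was 0.368% ± 0.052 in C-LTMRs, 0.430% ± 0.015 in nonpeptidergic and 0.566% ± 0.034 in peptidergic nociceptors (SD, n = 3 each). It was 1.27% ± 0.19 in proprioceptors, 1.28% ± 0.23 in Aδ-LTMRs, 1.86% ± 0.20 in Aβ RA-LTMRs (SD, n = 5), 1.97% ± 0.35 in Aβ SA1-LTMRs and 2.10% ± 0.50 in Aβ Field-LTMRs (SD, n = 3). The libraries of the A-fibre and C-fibre subtypes did not overlap on this measure, whose highest C-fibre value was 0.597% and lowest A-fibre value 1.04%.

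**Figure D4:**
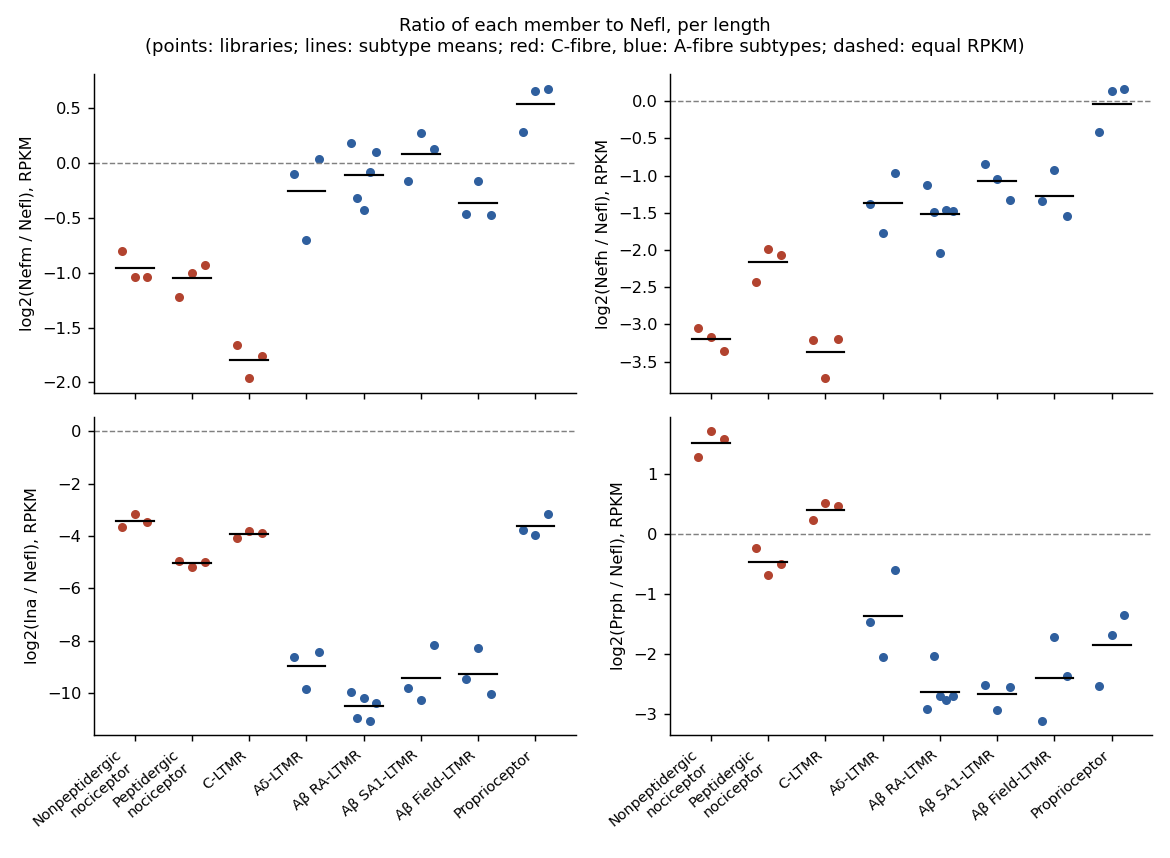
Log2 ratio of Nefm, Nefh, Ina and Prph to Nefl in RPKM, per library (points) and as subtype means (lines), with equal levels at the dashed line. The Prph ratio is above 0 in the 6 libraries of nonpeptidergic nociceptors and C-LTMRs and below 0 in the other 20, and the Nefh ratio is near 0 in proprioceptors.

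Ratios to Nefl within a library do not depend on its depth. In RPKM, Nefm stood at 0.288 times Nefl in C-LTMRs, 0.483 in peptidergic and 0.514 in nonpeptidergic nociceptors, and at 0.776 to 1.46 times in A-fibre subtypes (geometric means). Nefh stood at 0.0964 times Nefl in C-LTMRs, 0.110 in nonpeptidergic and 0.223 in peptidergic nociceptors. In the A-fibre LTMRs it was 0.349 to 0.476 times Nefl, and in proprioceptors 0.973. Prph stood at 2.86 times Nefl in nonpeptidergic nociceptors, 1.32 in C-LTMRs and 0.718 in peptidergic nociceptors, against 0.158 to 0.386 in A-fibre subtypes. The counts per kb of annotated exon gave another order in proprioceptors, with 850 ± 127 CPM of Nefm, 813 ± 122 of Nefh and 1189 ± 248 of Nefl (SD, n = 3). On that measure Nefm lay below Nefl in every subtype, and Nefh lay below Nefl in proprioceptors. The RPKM ratios share libraries and Nefl as denominator. Over the 8 subtype means, the log2 ratio to Nefl differed between A-fibre and C-fibre subtypes by 1.25 for Nefm, 1.86 for Nefh and -2.66 for Prph. Each gave a exact permutation (two-sided) p of 0.0357, the smallest that 56 arrangements of 5 against 3 allow, and 0.0476 after adjustment over 4 ratios. For Ina the difference was -4.22 (exact permutation p = 0.107, also 0.107 adjusted), since proprioceptors stood at 0.0811 times Nefl, among the C-fibre subtypes at 0.0304 to 0.0925.

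The 3 neurofilament subunits followed one another across libraries to different degrees. Over 26 libraries, Pearson's r of log2 CPM was 0.977 between Nefm and Nefh, 0.890 between Nefl and Nefm and 0.861 between Nefl and Nefh. Within the 17 A-fibre libraries these were 0.796, 0.332 and 0.006, and within the 9 C-fibre libraries 0.881, 0.864 and 0.984. In CPM, Nefl thus tracked Nefh among C-fibre libraries and not among A-fibre libraries. There Field-LTMRs were high and proprioceptors low in Nefl at like levels of Nefh. Aδ-LTMRs averaged 7540 CPM of Nefl and 1518 CPM of Nefh, and Aβ RA-LTMRs 7892 and 3064 CPM. These correlations were not computed on RPKM, where the lead of Field-LTMRs in Nefl was within the spread. Prph and Ina gave 0.931 within the C-fibre and -0.458 within the A-fibre libraries. These values describe libraries that share subtypes, and libraries of a subtype are not independent points.

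The counts and the RPKM did not give the same Nefl profile between libraries. The ratio of CPM to RPKM, divided by its median over libraries, ran from 0.776 in Aβ RA library 3 to 1.63 in Aβ Field library 2 for Nefl. For Prph it ran from 0.529 in Aδ library 1 to 1.46 in proprioceptor library 1. For Nefm it ran from 0.841 to 1.21, for Nefh from 0.728 to 1.35 and for Ina from 0.913 to 1.23. The Nefl ratio correlated at -0.892 over 26 libraries with the 5' to 3' bias in the alignment summary (0.82 to 1.22), and that of Prph at 0.661; whether the bias produced this was not tested. With that bias as a covariate the A-fibre minus C-fibre difference of Nefl was 1.77. On RPKM the means of Nefl in Aβ Field-, Aβ SA1- and Aβ RA-LTMRs were 2319 ± 880 (SD, n = 3), 2144 ± 545 (SD, n = 3) and 2069 ± 446 (SD, n = 5). In CPM no library of another subtype reached the Field-LTMRs, but on RPKM their lead was within the spread.

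Promoter sequence (RefSeq, GRCm38.p6) was at hand for 2 members, Prph and Ina, which are the 2 that were not higher in A-fibre subtypes. The 250 bases before each start are printed in their own orientation, and capitals mark the TATAAA motif.
Prph: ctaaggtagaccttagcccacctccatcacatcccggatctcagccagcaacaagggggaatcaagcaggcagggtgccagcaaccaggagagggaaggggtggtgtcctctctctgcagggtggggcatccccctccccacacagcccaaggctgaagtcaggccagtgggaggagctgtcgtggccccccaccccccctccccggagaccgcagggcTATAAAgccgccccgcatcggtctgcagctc
Ina: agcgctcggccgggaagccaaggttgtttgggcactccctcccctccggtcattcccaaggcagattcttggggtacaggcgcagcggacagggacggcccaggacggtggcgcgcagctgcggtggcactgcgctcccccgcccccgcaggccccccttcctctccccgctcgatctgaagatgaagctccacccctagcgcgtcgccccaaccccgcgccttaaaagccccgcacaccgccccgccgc
The Prph window is chr15:99054924-99055173 and the Ina window chr19:47014431-47014680, both on the plus strand. TATAAA lies at bases -31 to -26 of Prph, and 12.368% of 32851 promoters of this length held it on either strand. GGGCGG, searched on both strands, occurred on the minus strand at bases -24 to -19 of Prph and at -111 to -106 and -12 to -7 of Ina, and 32.742% of promoters held it. CCAAT, also searched on both strands and held by 33.85% of promoters, was not in these windows. The GC content was 65.2% for Prph and 70.8% for Ina, against a median of 52.4% over all promoters.

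Genes that act on neurofilaments were counted in the same contrast. Of 85 tested genes in 8 lists (other intermediate filaments, crosslinkers, kinases and phosphatases, turnover, motors, microtubule genes, the spectrin membrane skeleton and RNA binders), 10 passed as higher in A-fibre and 6 as higher in C-fibre subtypes. That is 16 of 85 where 28.5% of all genes passed, and the median log2 difference was 0.10 against 0.02 over all genes. The share, 18.8% here, was below or above that of all genes depending on the fit. On RPKM with limma the split was 6 higher and 10 lower at a pseudocount of 0.1 (18.8%, and 20.6% of all genes). It was 5 and 9 at a pseudocount of 1 (16.5%, and 10.2% of all genes). With the glia score as covariate it was 11 and 10 (24.7%, and 20.7% of all genes).

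Of the 22 kinases and phosphatases that act on neurofilament tails and heads or regulate such enzymes, 3 passed as higher in A-fibre subtypes and 1 as lower, beside 28.5% of all genes. On RPKM with limma 2 passed as higher and 3 as lower, and with the glia score as covariate 4 and 2. Prkaca, the catalytic subunit of protein kinase A, held 114 to 409 CPM in A-fibre and 73.9 to 109 CPM in C-fibre libraries without overlap, a difference of 1.40 (SE 0.13, adjusted p = 1.4e-09). Camk2b, the beta subunit of a calmodulin-dependent kinase, differed by 1.01 (SE 0.10), at the threshold, and lost its call in 10 of 36 alternatives. It averaged 7.38 CPM in nonpeptidergic nociceptors. Peptidergic nociceptors at 52.8 CPM and C-LTMRs at 41.3 CPM lay within the A-fibre means of 31.5 to 70.6 CPM. Camk2a, the alpha subunit of the same kinase, went the other way at -3.38 (SE 0.19, adjusted p = 9.1e-14), with a median of 28.5 CPM in A-fibre and 421 CPM in C-fibre libraries. Its ranges overlapped, at 3.81 to 97.3 CPM in A-fibre and 75.5 to 490 CPM in C-fibre libraries. Camk2a averaged 434 CPM in nonpeptidergic and 460 CPM in peptidergic nociceptors, but 86.4 CPM in C-LTMRs, near the 71.5 CPM of Aβ Field-LTMRs. Cdk5, a kinase of the heavy tail singled out after its values were seen, differed by 0.58 (adjusted p = 6.3e-06) and did not reach the fold threshold.

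Of 6 genes for proteins that bind neurofilament mRNA, Arhgef28 passed, as lower in A-fibre subtypes (-2.97, SE 0.23, adjusted p = 3.2e-11). Its product binds the Nefl mRNA, and its median was 4.84 CPM in A-fibre and 33.6 CPM in C-fibre libraries. The ranges overlapped, with A-fibre libraries up to 17.45 CPM and C-fibre libraries down to 15.13 CPM. Arhgef28 averaged 16.27 CPM in Aδ-LTMRs, near the 18.92 CPM of nonpeptidergic nociceptors. The other A-fibre subtypes averaged 2.063 to 5.42 CPM, C-LTMRs 33.72 CPM and peptidergic nociceptors 68.56 CPM.

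Of 18 microtubule genes, 3 passed as higher and 2 as lower, beside 28.5% of all genes. With limma on RPKM these counts were 2 and 3, and with the glia score as covariate 3 and 4. Tuba4a, an alpha-tubulin, was higher in A-fibre subtypes by 3.48 (SE 0.19, adjusted p = 3.6e-14), with 157 to 559 CPM in A-fibre and 4.60 to 113 CPM in C-fibre libraries. Map2, a microtubule-associated protein of dendrites and cell bodies, was higher by 2.28 (SE 0.15). Tubb2b (-2.98, SE 0.26) and Stmn1 (-2.11, SE 0.13), a beta-tubulin and a tubulin-binding protein of growing neurons, were lower. In the spectrin membrane skeleton, 3 of 10 passed as higher, among them Sptbn4 by 1.51 and Add3 by 1.01, and 1 as lower. With limma on RPKM 2 passed as higher and 2 as lower at a pseudocount of 0.1, and 1 and 1 at a pseudocount of 1. The lower one on the counts was Ank3, which encodes ankyrin-G of the node and the initial segment, at -1.34 (SE 0.12, adjusted p = 2.4e-10). Add3 lost its call in 16 of 36 alternatives, and its difference was -0.08 with the glia score as covariate.

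Of 9 other intermediate filament genes 1 passed in edgeR, beside 28.5% of all genes, 7 had an unadjusted p under 0.05, DESeq2 called 2 and limma 0. It was Nes, at a mean of 2.55 CPM and a difference of 1.48, which was 0.80 with the glia score as covariate (adjusted p = 0.205) and did not pass. Vim, the filament of glia and fibroblasts, differed by 0.78 (SE 0.13, adjusted p = 1.4e-05), under the fold threshold. Nes, Vim, Kif5a and Dst are named outside the rule for named genes, after their values were seen. Of 10 motor genes edgeR called 0 at both thresholds, with 4 at an unadjusted p under 0.05, and DESeq2 and limma called 0. Of 3 plakin crosslinkers edgeR called 0, with 0 at an unadjusted p under 0.05, and DESeq2 and limma called 0. Kif5a, a kinesin heavy chain that carries neurofilaments, differed by -0.45 (adjusted p = 2.3e-05) and Dst, the plakin that links filaments to microtubules, by 0.10 (adjusted p = 0.575).

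**Figure D5:**
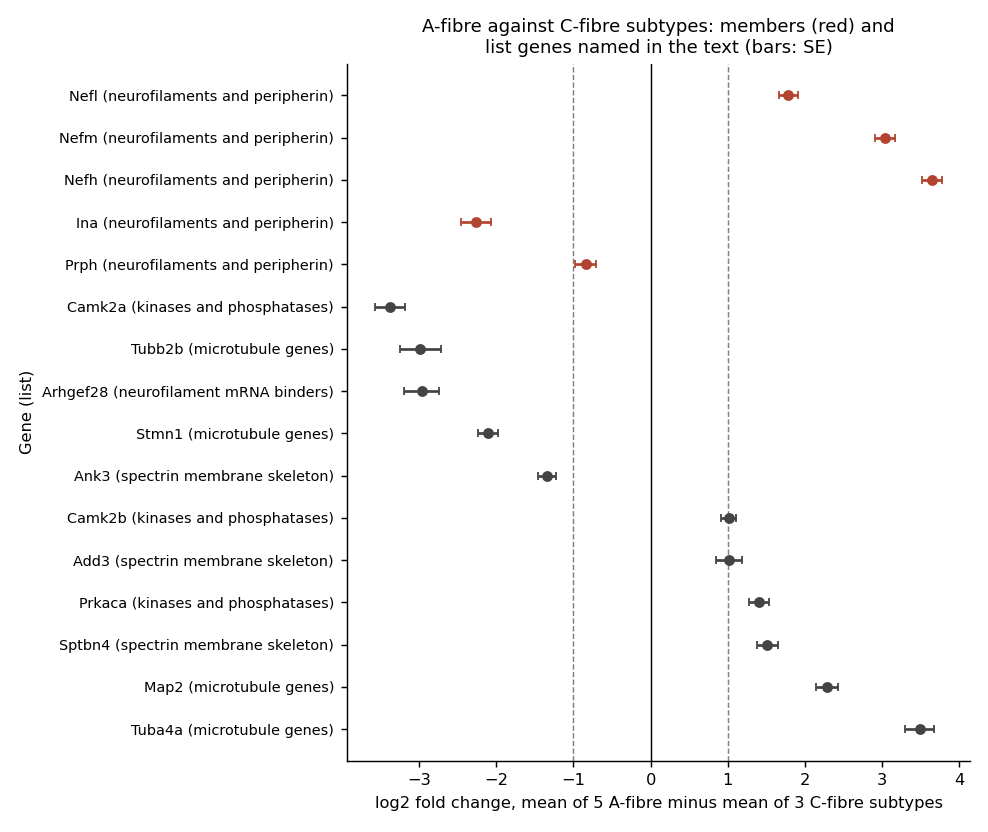
Log2 fold change between the mean of 5 A-fibre and the mean of 3 C-fibre subtypes, with SE, for the 5 members (red) and list genes named in the text for the size of their change (black), with dashed lines at the fold threshold. Nefh at 3.64 and Tuba4a at 3.48 have the highest values, and Camk2a at -3.38 the lowest.

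The genes most like each member over 26 libraries were sought among 5819 genes at a mean of at least 20 CPM. For Nefl they were Ankrd29 (r = 0.941), Vwc2l, Hapln1, Kcna1 and Rnf157 (0.915), and Kcna1, a Kv1 potassium channel, held 67.6 CPM in nonpeptidergic nociceptors and 1563 CPM in Aβ Field-LTMRs. For Nefm they were Adam23 (0.975), Phyhipl, Slc8a3, P2rx6 and Bend6 (0.960). For Nefh they were Phyhipl (0.987), Bend6, Hapln4, Epn3 and S100b (0.973). Hapln4, a link protein of the extracellular matrix, averaged 1.55 CPM in nonpeptidergic nociceptors and 262 CPM in Aβ SA1-LTMRs. For Ina they were Kcnip2 (0.918), Dab2ip, Faim, Kbtbd11 and Wbp5 (0.853). Kcnip2, a partner of Kv4 channels, held 327 CPM in nonpeptidergic nociceptors and 4.65 CPM in Aβ RA-LTMRs, but 100.3 CPM in proprioceptors, where Ina was highest. For Prph they were Tubb5 (0.935), Tbrg1, Anapc5, Ift46 and Eef1a1 (0.888). Tubb5, a beta-tubulin, averaged 1357 CPM in nonpeptidergic and 477 CPM in proprioceptive neurons. Ranked over the 8 subtype means instead, 3 of 5 genes stayed for each of Nefl, Nefm, Nefh and Ina, and 0 of 5 for Prph.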

How the data were processed

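Deposited by the authors were whole-number read counts and RPKM values for each gene and library; per the submitters' processing notes STAR, HTSeq 0.6.1, DESeq2 1.14.1, Cuffdiff, FastQC 0.11.3 and the build mm10 were used, with no role stated. The authors' alignment summary gives mapping rates as a fraction (printed here as a percentage), GC content as a percent and a ratio for coverage bias between transcript ends (5'-3' bias), per the file headers. The direction of that ratio and how the RPKM lengths and totals were set are not given in the sources used here. The authors' regularized log2 table was not used. Per the labels, RNA of FACS-sorted neurons was amplified before library preparation, so amplification can alter coverage along a transcript. Every per-sample column of the tables used was mapped to a library.

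Counts were tested with edgeR 4.0.16 (R 4.3.3): filterByExpr, TMM, a robust quasi-likelihood fit over all 26 libraries with 8 subtype means, and Benjamini-Hochberg adjustment over all 17411 genes. A gene passed at an adjusted p under 0.05 and an absolute log2 difference of at least 1. The fibre-class contrast compares the mean of 5 subtype means with that of 3. CPM values are TMM-scaled. Counts were simulated for that contrast with 200 of 17411 genes changed. An adjusted p under 0.05 was reached by 97% of 100 genes changed by a log2 of 1 and 100% of 100 changed by 2. Of the genes at that p, 2.48% were unchanged. The fold threshold was not applied there, so these are not rates of passing. In the data 28.5% of genes passed, so the simulation also held far fewer changes. Every simulated gene had the same dispersion (relative spread), and subtypes of a fibre class did not differ. In the data 78.3% of genes passed the test over 8 subtypes, so the simulated rates need not hold there. Ratios between genes used RPKM and exact permutation over 8 subtype means (SciPy 1.17.1). Alternatives were DESeq2 1.42.0, limma 3.58.1 on log2(RPKM + 0.1) and log2(RPKM + 1) with genes at 0.1 RPKM in 3 libraries or more, other size factors, no filter, covariates, a replicate block and leaving out each library. The 5'-3' bias covariate and leaving out both Aδ libraries 1 and 2 were added after seeing the data. The members and lists were chosen with earlier results of these data known. The text names at most 4 genes per list, those past the thresholds with the largest change at a mean of at least 5 CPM, and the 5 genes most correlated with each member; some list genes are not reported here.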

Additional observations from a re-analysis of the deposited data

How the results depend on the processing

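Leaving out each of 26 libraries kept the 5 fibre-class differences on their side of the thresholds: Nefl 1.74 to 1.83, Nefm 2.98 to 3.07, Nefh 3.57 to 3.68, Ina -2.48 to -2.18 and Prph -0.97 to -0.78. The cause of the changes below was not tested. On RPKM with limma the Prph fibre-class difference was -1.06 at a pseudocount of 0.1 and -1.06 at 1, and 1957 genes were called at a pseudocount of 1 against 4969. The median log2 difference of all genes was 0.02, and 0.15 with DESeq2 and -0.15 with limma at a pseudocount of 0.1. With the glia score as covariate Prph had an adjusted p of 0.126 over subtypes and 1 pair, Nefl in proprioceptors minus nonpeptidergic nociceptors was 1.21 and lost its call (adjusted p = 0.155), Ina 0.043 and Prph -1.39, and Add3 was -0.083. For Ina that pair was 1.07 without the filter (adjusted p = 0.0887) and 0.95 and 0.93 on RPKM.

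For Aβ RA- minus Aδ-LTMRs, Nefm was 0.87 with read-length class, 0.87 with the bias, 1.10 without Aδ libraries 1 and 2, and 0.78 and 0.78 on RPKM. Nefh was 0.73 with read-length class, 0.95 with glia, 0.83 with the bias, 0.83 without those libraries, and 0.49 and 0.49 on RPKM. Prph, at 0.12, turned to -0.70 with read-length class, -0.61 without those libraries, and -0.62 and -0.61 on RPKM. Nefl in proprioceptors minus Aβ RA-LTMRs was -1.002 without the filter, -1.05 with the bias, and -1.13 and -1.13 on RPKM. For Aβ SA1- minus Aβ Field-LTMRs, Nefm was -0.11 with read-length class and -0.18 with the bias, Nefh -0.045 with glia and -0.24 with the bias, and Ina 0.20 with glia. Nefh in C-LTMRs minus nonpeptidergic nociceptors was -0.009 with the bias.

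Leaving out 1 library gave these ranges. Aβ RA- minus Aδ-LTMRs ranged from -0.20 to 0.33 for Nefl, 0.98 to 1.22 for Nefm, 0.96 to 1.14 for Nefh, -1.15 to -0.65 for Ina and -0.11 to 0.73 for Prph. Proprioceptors minus Aβ RA-LTMRs ranged from -1.16 to -0.89 for Nefl and -0.03 to 0.20 for Nefh. C-LTMRs minus nonpeptidergic nociceptors ranged from -0.019 to 0.14 for Nefl. Aβ SA1- minus Aβ Field-LTMRs ranged from -0.069 to 0.24 for Nefh, -1.16 to 0.33 for Ina (lowest without SA1 library 3) and -0.32 to 0.22 for Prph. Proprioceptors minus nonpeptidergic nociceptors ranged from 0.97 to 1.26 for Nefl and 0.97 to 1.15 for Ina.

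Replicate numbers showed no clear pairing of libraries over all genes. With each gene's subtype mean subtracted from its log2 CPM, same-numbered libraries of different subtypes correlated at -0.154 to 0.239 (median 0.002). Libraries of other numbers correlated at -0.214 to 0.243 (median 0). Whether some libraries shared a batch was not tested. On these deviations 8 of 26 libraries were closest to one of their own number. With the number as a replicate block the fibre-class differences were 1.80 (Nefl), 3.06 (Nefm), 3.65 (Nefh), -2.27 (Ina) and -0.86 (Prph), 2614 genes were called higher and 2322 lower in A-fibre subtypes, and Nefl in proprioceptors minus Aβ RA-LTMRs was -1.03. Nothing was below the depth needed to detect a member: all 5 had counts in all 26 libraries.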
